A study of Homo sapiens with 4 samples.

Results

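The EGF receptor family, its ligands and close partners were examined in the FOXK2 ChIP-seq peak lists of OVCAR5 cells. The members were 10 genes, chosen by name: the receptors EGFR, ERBB2, ERBB3 and ERBB4, the ligands AREG, EREG, HBEGF and TGFA, the receptor kinase MET and the feedback inhibitor ERRFI1. Every peak that the deposited annotation assigned to one of these genes was taken, which gave 23 of 12471 peaks in replicate 1 and 39 of 27281 peaks in replicate 2. OVCAR5 is an established ovarian cancer cell line, which the labels describe as high grade serous and as derived from ascites. Chromatin was precipitated with an antibody against FOXK2 in 2 biological replicates of untreated cells, so the data hold 1 condition of 1 line and no contrast between groups. The input libraries were not analysed here, and transcript levels were not used, so neither signal over input nor expression of the members is given. All positions are on hg38.

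Receptors of the EGF family are tyrosine kinases at the cell surface that pair when a ligand binds and pass the signal to the RAS and PI3K pathways. ERBB2 has no known ligand of its own and ERBB3 has a weak kinase, so both signal mainly as partners of other family members. The ligands are made as membrane precursors that proteases release, and the pathway induces its own inhibitors. FOXK2 is a forkhead transcription factor, and factors of this family recognize the heptamer TGTTTAC.

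A peak score in these lists is the normalized number of sequenced tags under the peak, and it was compared only within its own list as a score percentile, the share of the list ranked below the peak. Distances are from the start of the canonical GENCODE transcript, with negative values upstream, because the deposited distances of several EGFR peaks refer to alternative start sites. A peak is called shared when it overlapped a peak of the other list by at least 1 bp. Replicate 1 peaks spanned 211 bases with a list median of 31 tags, and replicate 2 peaks spanned 257 bases with a median of 49 tags. The sequences of 4 shared peaks are shown at their replicate 1 positions on the plus strand, since they carry the strongest signal of EGFR, the EGFR site with a heptamer at its centre, the only shared promoter peak among the members and the strongest shared peak among the 4 member ligands. Capitals mark the heptamer TGTTTAC or an AP-1 site, TGAGTCA or its reverse complement TGACTCA.
EGFR intron 1, chr7:55132936-55133146: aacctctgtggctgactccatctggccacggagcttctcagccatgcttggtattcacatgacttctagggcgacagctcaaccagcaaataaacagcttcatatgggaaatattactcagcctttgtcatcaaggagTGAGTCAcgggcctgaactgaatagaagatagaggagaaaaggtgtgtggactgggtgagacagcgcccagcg
EGFR upstream, chr7:54996082-54996292: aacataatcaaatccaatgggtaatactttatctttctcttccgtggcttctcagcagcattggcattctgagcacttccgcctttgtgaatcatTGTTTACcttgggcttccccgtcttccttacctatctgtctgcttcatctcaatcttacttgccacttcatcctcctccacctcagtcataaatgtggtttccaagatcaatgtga
ERBB2 and PGAP3, chr17:39688081-39688291: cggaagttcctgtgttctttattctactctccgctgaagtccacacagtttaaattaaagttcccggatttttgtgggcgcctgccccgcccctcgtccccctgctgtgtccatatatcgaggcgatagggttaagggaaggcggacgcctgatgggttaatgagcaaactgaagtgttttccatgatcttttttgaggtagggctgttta
TGFA upstream, chr2:70608313-70608523: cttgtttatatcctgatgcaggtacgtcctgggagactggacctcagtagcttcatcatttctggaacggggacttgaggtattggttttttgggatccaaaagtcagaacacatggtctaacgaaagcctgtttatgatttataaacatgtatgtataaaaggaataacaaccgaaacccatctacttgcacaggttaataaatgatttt
The first holds 1 AP-1 site, the second 1 heptamer, and the last 2 hold neither.

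FOXK2 peaks were found at most of these genes, mainly away from promoters. Of the 10 members, 8 had a peak in both replicates and in all 8 at least 1 pair overlapped (EGFR, ERBB2, ERBB3, ERBB4, AREG, TGFA, MET and ERRFI1). EREG had peaks only in replicate 2, and HBEGF had none in either list. Among all 20033 protein-coding genes of the reference, 31.3% had a peak in replicate 1, 51.7% in replicate 2, 28.6% in both, and 25.5% had overlapping peaks. These shares are given as background only, since a gene with a long body or far from other start sites can be assigned more peaks under a nearest-start rule. Within the gene bodies of the members, whatever gene a peak was assigned to, there were 0.753 peaks per 100 kb in replicate 1 and 1.51 in replicate 2, beside 0.532 and 1.15 over all protein-coding genes.

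**Figure D1:**
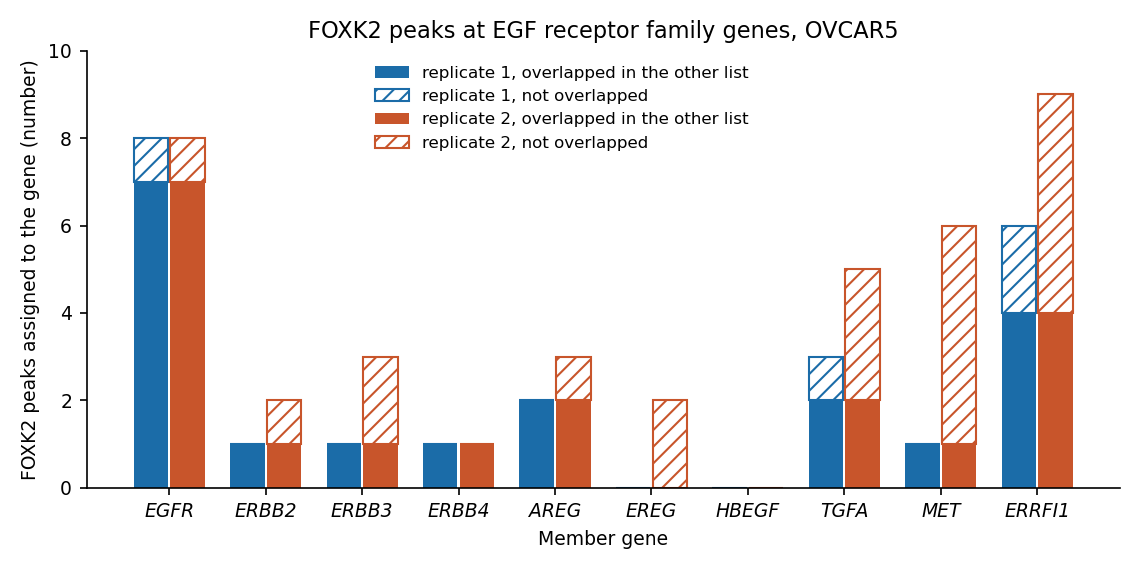
The bars give the number of FOXK2 peaks assigned to each member gene in replicate 1 (blue) and replicate 2 (orange), with filled parts for peaks overlapped in the other list and hatched parts for those that were not. EGFR had 8 peaks in each list, of which 7 overlapped, ERRFI1 had 6 and 9, and HBEGF had none.

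Of the 23 replicate 1 peaks, 19 were overlapped in replicate 2 (82.6%, Wilson 95% interval 62.9% to 93.0%), beside 74.9% of the whole list. Of the 39 replicate 2 peaks, 19 were overlapped in replicate 1 (48.7%, 33.9% to 63.8%), beside 34.2% of the whole list. Both intervals cover counting error only and include the share of the whole list. EGFR alone gave 7 of 8 shared peaks in each list, and without it the shares were 80.0% (12 of 15) and 38.7% (12 of 31).

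By peak, promoters took a small part of the member peaks. The deposited annotation placed 1 of 23 replicate 1 peaks (4.35%) and 2 of 39 replicate 2 peaks (5.13%) at a promoter, beside 21.7% and 18.0% of all peaks. Intergenic peaks made up 56.5% and 51.3% of the member peaks, beside 34.1% and 36.5% of all, and introns held 39.1% and 41.0%, beside 39.0% and 40.6%. Most of the intergenic member peaks, 13 in replicate 1 and 20 in replicate 2, came from EGFR (4 and 4) and ERRFI1 (6 and 9). By gene, 1 of the 10 members, ERBB2, had a promoter peak in both replicates, a share close to the 9.31% of all protein-coding genes. The median GC content of the windows around member peaks was 44.8% in replicate 1 and 42.3% in replicate 2, and 47.3% and 46.3% over all peaks. The median focus ratio, the fraction of tags lying on the expected side of the peak centre, was 0.755 and 0.756, and 0.758 and 0.755 over all peaks.

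EGFR, the receptor for EGF, TGF-alpha and amphiregulin, carried the strongest peaks of the group. It had 8 peaks in each list, spread over 172 kb, with the outermost at -57.6 kb and 114 kb in replicate 1 and at -57.5 kb and 114 kb in replicate 2. In each list 4 of them lay upstream in intergenic DNA and 4 in intron 1, which covers 123 kb of the 193 kb gene, and none lay in the rest of the gene. Score percentiles lay between 71.4 and 94.6 in replicate 1 and between 68.0 and 98.7 in replicate 2, so that every EGFR peak stood above its list's median. Only 9 protein-coding genes (0.0449%) had 8 or more peaks in replicate 1, and 139 (0.694%) had as many in replicate 2. The nearest coding start sites on either side were those of SEC61G at 260 kb and LANCL2 at 346 kb, and the part of the count due to this spacing was not tested.

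**Figure D2:**
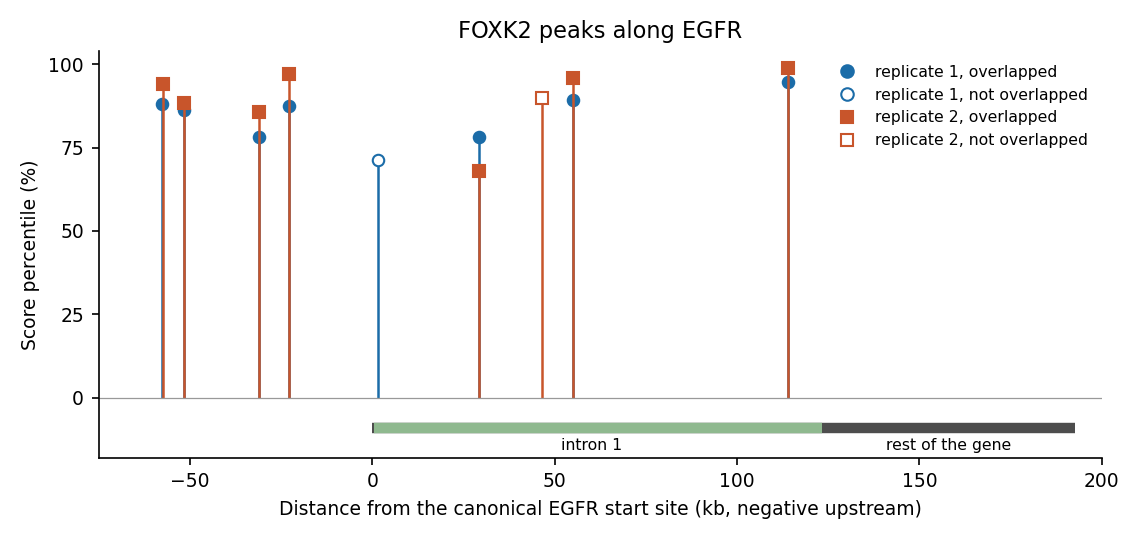
Each line is a FOXK2 peak of replicate 1 (blue circle) or replicate 2 (orange square), placed by its distance in kb from the canonical EGFR start site, and its height is the score percentile within its list; open symbols are peaks without overlap in the other list, and the bar is the gene with intron 1 in green. All peaks lay between -57.6 kb and 114 kb, and the highest pair, at 114 kb, reached percentiles of 94.6 and 98.7.

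The strongest pair lay near the 3′ end of intron 1, at 114 kb. It scored 14.5 in replicate 1 (77 tags, rank 670) and 35.5 in replicate 2 (239 tags, rank 358), the highest score of any member peak in both lists. Its AP-1 site TGAGTCA was 36 bp and 28 bp from the 2 peak centres, and neither peak held the heptamer. A second intron 1 pair at 55.0 kb scored 11.3 and 22.9, at percentiles of 89.2 and 95.9. The third, at 29.3 kb, scored 8.68 and 9.52, at percentiles of 78.1 and 68.0, and held a heptamer 15 bp and 18 bp from its centres.

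Upstream of EGFR, the highest percentile in replicate 2 belonged to the pair at -22.8 kb, with scores of 10.8 (57 tags) and 25.3 (170 tags) and percentiles of 87.5 and 96.9. The middle of its heptamer lay close to the centre of both peaks, at offsets of -7 bp and -1 bp. The pair at -31.1 kb scored 8.68 and 14.0 (percentiles 78.1 and 85.7) and also held a heptamer. The outer 2 pairs each held an AP-1 site and no heptamer. The pair at -57.6 kb scored 10.9 and 19.6 (88.1 and 93.9), and that at -51.5 kb scored 10.4 and 15.2 (86.2 and 88.2). Thus the 4 upstream sites were found at high percentiles in both replicates, and differed in which of the letters they held.

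Only 2 EGFR peaks lacked a partner. The one nearest to the start site, at 1.57 kb in intron 1, was called in replicate 1 alone with a score of 7.73 and the lowest percentile of the EGFR peaks there, 71.4. In replicate 2 alone, a peak at 46.7 kb scored 16.2, at a percentile of 89.8, and held a heptamer. That second peak was not weak in its own list, and the nearest replicate 1 peak centre was 8387 bp away.

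ERBB2, the receptor known as HER2 and often amplified in breast cancer, had 1 shared peak in the promoter class. It scored 9.62 in replicate 1 (51 tags, percentile 83.4) and 17 in replicate 2 (114 tags, percentile 90.9). The annotation assigned it to an alternative start of ERBB2, at 102 bp and 78 bp, while it lay -11.9 kb from the canonical start and only 129 bp and 105 bp from the start of PGAP3, a neighbouring gene for an enzyme of GPI anchor remodelling. The peak can therefore not be told apart as one of ERBB2 or of PGAP3. A peak in intron 2, at 7.13 kb, was called in replicate 2 only, with a score of 15.3 (103 tags, percentile 88.5) and a heptamer 1 bp from its centre.

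ERBB3, the neuregulin receptor with a weak kinase, had 1 shared peak in intron 4, at 7.24 kb. It scored 6.79 and 6.99, at percentiles of 61.9 in replicate 1 and 46.9 in replicate 2. Replicate 2 alone had a peak at the promoter, at -0.224 kb (score 6.25, percentile 38.5), and another in intron 1 at 0.602 kb (score 12.2, percentile 80.8) with a heptamer. The strongest ERBB3 peak was thus one that replicate 1 lacked.

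ERBB4, the other neuregulin receptor, is the longest gene of the group at 1163 kb and had the lowest density of peaks in its body among members with any there in both lists. Its shared peak in intron 1, at 18.2 kb, scored 4.90 and 7.58, at percentiles of 30.8 and 52.9. A second shared peak in intron 1, at 86.9 kb, was assigned to the microRNA gene MIR548F2 (percentiles 38.9 and 66.2). Another 3 peaks towards the gene's end, called in replicate 2 only, were assigned to CPS1-IT1. Counted by position, the ERBB4 body held 2 peaks in replicate 1 (0.172 per 100 kb) and 5 in replicate 2 (0.430 per 100 kb), while the EGFR body held 2.08 per 100 kb in each.

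Among the ligands, AREG, which encodes amphiregulin, had 2 shared peaks. The peak in intron 4, at 6.24 kb in replicate 1 and 6.34 kb in replicate 2, scored 4.53 and 10.3 and held an AP-1 site. Its percentile was 21.9 in replicate 1 and 72.4 in replicate 2, the widest gap of any member pair. The other, at 60.7 kb and 60.6 kb, scored 6.04 and 9.37 (52.2 and 67.1) and held a heptamer. A weak peak at 127 kb was called in replicate 2 only (score 4.61, percentile 16.1).

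EREG, which encodes epiregulin, lies next to AREG, with the start sites 80.0 kb apart. It had peaks in replicate 2 only, in intron 1 at 5.92 kb (score 7.58, percentile 52.9) and at 30.8 kb (score 6.39, percentile 40.2), the latter with 2 heptamers. In the same stretch of chromosome 4, EPGN had no peak in either list and BTC, for betacellulin, had 5 in each. The numbers of peaks assigned to the 4 genes were thus uneven. As many peaks as BTC had 0.574% of protein-coding genes in replicate 1 and 3.27% in replicate 2. The intergenic BTC peaks lay at deposited distances of 111831 bp to 169958 bp in replicate 1 and -44168 bp to 161778 bp in replicate 2. The AREG and BTC starts are 349 kb apart, and the part of the BTC count due to this spacing was not tested.

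TGFA, for TGF-alpha, had 2 shared peaks upstream. The pair at -54.6 kb and -54.5 kb scored 7.55 (40 tags) and 12 (81 tags), at percentiles of 69.8 and 80.2. The pair at -49.5 kb was weaker, with scores of 5.09 and 6.54 (34.8 and 41.9). In intron 1, a replicate 1 peak at 29.4 kb (score 7.36, percentile 68.0) and a replicate 2 peak at 28.7 kb (score 8.48, percentile 60.7) lay 747 bp apart and did not overlap. Replicate 2 had a further intron 1 peak at 21.9 kb (percentile 55.8) and one at -73.8 kb (percentile 58.3) with a heptamer. HBEGF, for heparin-binding EGF-like growth factor, had no peak. The nearest one lay 23 kb from its start in both lists, was shared at percentiles of 72.8 and 78.5, and was assigned to PFDN1.

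MET, the receptor for hepatocyte growth factor, differed most between the lists in its number of peaks, with 1 in replicate 1 and 6 in replicate 2. The shared peak lay in intron 1, at 18.6 kb in replicate 1 and 18.5 kb in replicate 2, scored 6.04 and 6.39 (52.2 and 40.2), and held a heptamer. The 5 peaks found only in replicate 2 lay between -18.9 kb and 58.6 kb, at percentiles from 18.1 to 59.5. The last part of the gene held a shared peak in intron 17, at 109 kb (30.8 and 61.9), which was assigned to the downstream gene CAPZA2, and a replicate 2 peak in intron 14 was assigned there as well.

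ERRFI1 encodes MIG6, which binds the EGFR kinase and blocks it. It had 6 peaks in replicate 1 and 9 in replicate 2, all intergenic by the deposited annotation, between -71.2 kb and 21.2 kb. By GENCODE, 1 peak in each list lay inside the gene, at 21.2 kb and 21.1 kb, past the end of the canonical transcript. As many or more peaks were assigned to 51 protein-coding genes in replicate 1 (0.255%) and 77 in replicate 2 (0.384%). Of the 4 shared pairs, that at 21.2 kb and 21.1 kb scored 5.85 and 10.1 (49.1 and 71.7), and that at -71.2 kb scored 6.60 and 8.48 (59.7 and 60.7). The pair at -70.4 kb scored 5.66 and 8.63 (45.8 and 61.9). The pair at -35.1 kb and -35.2 kb was the weakest in replicate 1, at 4.53 and 7.44 (21.9 and 51.4), and the only one of them with a heptamer. No ERRFI1 peak reached the percentiles of the EGFR peaks in replicate 1, where the best stood at 59.7, while in replicate 2 the best, at 71.7, stood above the lowest EGFR peak, at 68.0.

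The peaks of ERRFI1 without a partner were mostly weak. In replicate 1 they lay at -35.7 kb (21 tags, percentile 7.54, the weakest member peak) and -57.9 kb (percentile 26.7). In replicate 2 the 5 unshared peaks ran from -57.7 kb to -2.19 kb, at percentiles of 20.1 to 48.5. At the outer of these positions, -57.9 kb and -57.7 kb, the lists each had a peak, with centres 258 bp apart, that fell short of overlapping.

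**Figure D3:**
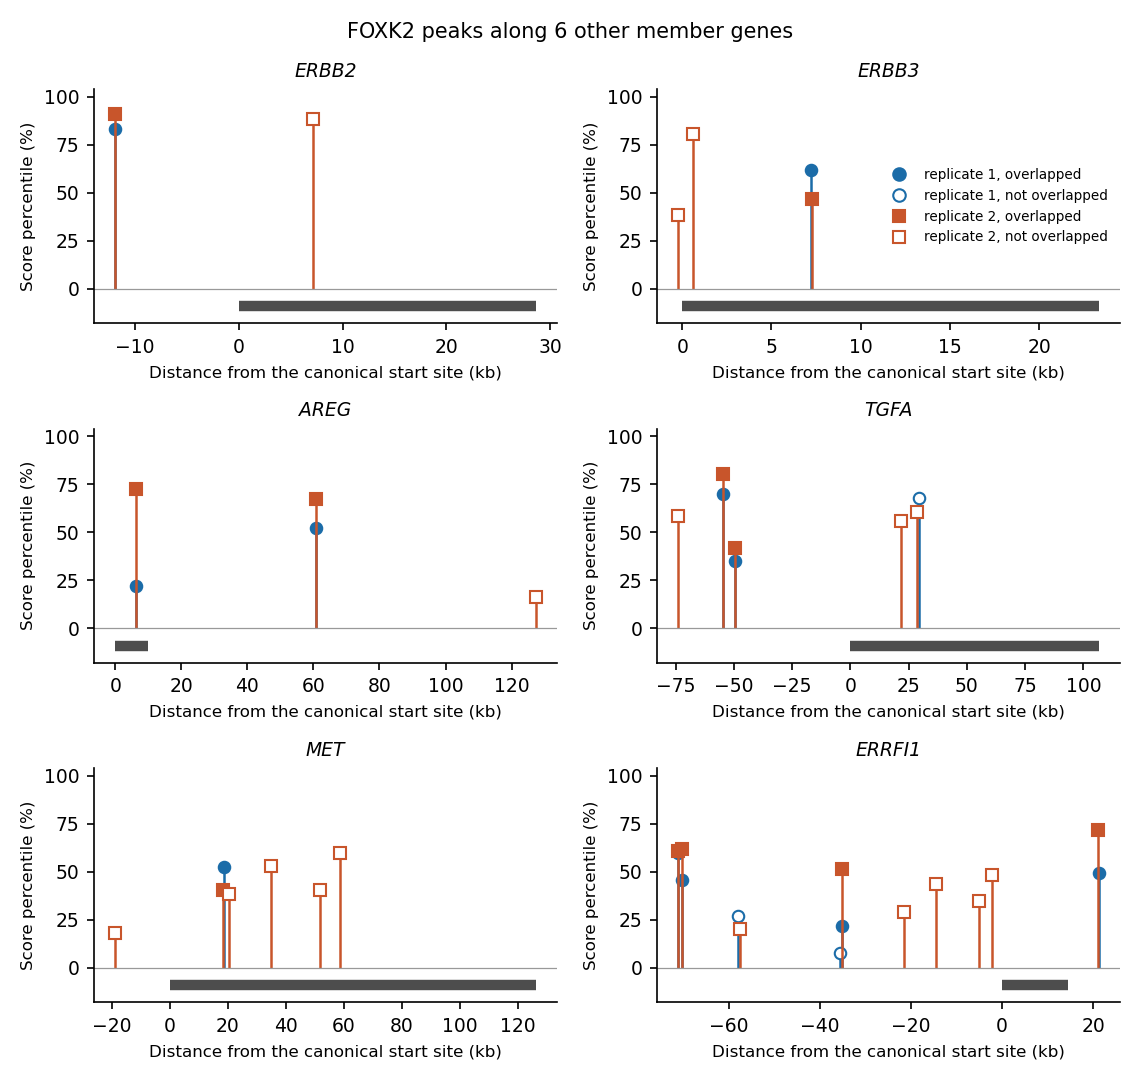
FOXK2 peaks of ERBB2, ERBB3, AREG, TGFA, MET and ERRFI1 are placed by distance in kb from each canonical start site, with the score percentile as height, the canonical transcript as a grey bar, filled symbols for shared peaks and open symbols for the others (blue circles, replicate 1; orange squares, replicate 2). The MET and ERRFI1 panels each show 5 replicate 2 peaks without a partner, while the ERBB2 pair stands at 83.4 and 90.9.

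Across the group, the strongest peaks were those of EGFR. The median percentile of all member peaks was 61.9 in replicate 1 and 58.3 in replicate 2, beside 49.1 and 49.98 for all peaks. The EGFR peaks had medians of 86.9 and 91.9, and the other members 49.1 and 52.9. Only 1 member peak in replicate 1 and 5 in replicate 2 stood above the percentile of 90, namely 4 peaks of EGFR and the ERBB2 peak in replicate 2 and the 114 kb peak of EGFR in replicate 1. Shared member peaks had medians of 61.9 and 71.7 and unshared ones 47.4 and 46.0, while over all peaks the medians were 59.7 and 77.9 for shared and 26.7 and 34.8 for unshared peaks.

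**Figure D4:**
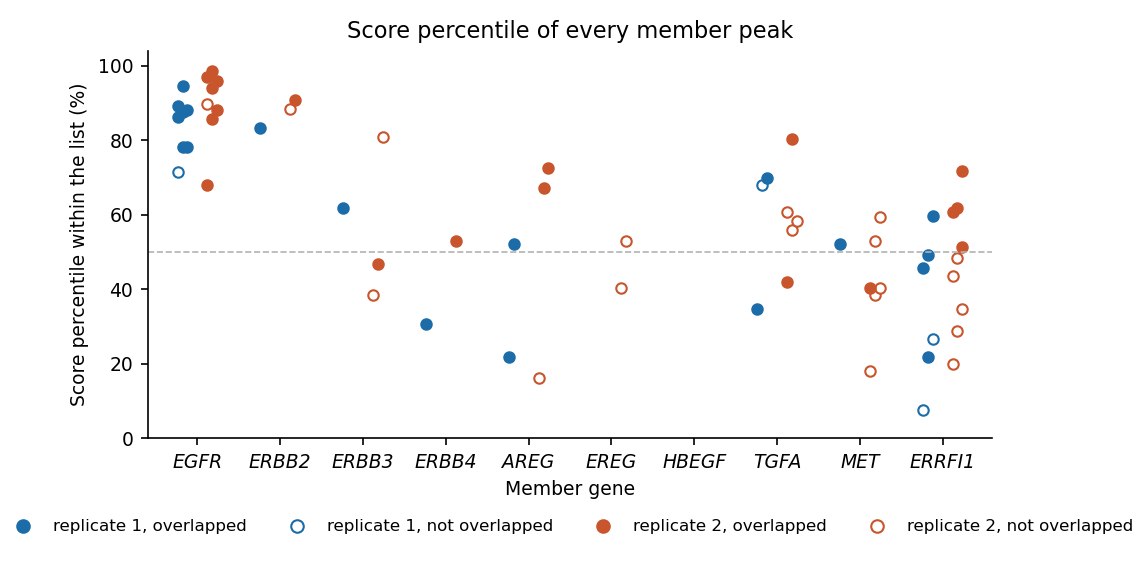
Every member peak is a point at its score percentile within its own list, by gene, for replicate 1 (blue) and replicate 2 (orange), with filled points for shared peaks and a dashed line at 50%. The EGFR points lie between 68.0 and 98.7, and those of the other genes between 7.54 and 90.9.

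The score percentiles of shared peaks were set side by side between the replicates. Over the 19 shared pairs, Spearman's rho of the percentiles was 0.78; it was 0.88 over the 7 EGFR pairs and 0.30 over the other 12. These values describe pairs from the same 2 libraries and carry no test. In 16 of 19 pairs the percentile was higher in replicate 2, the longer list, and shared peaks of the whole lists differed in the same direction, with medians of 59.7 and 77.9, so nothing about the members is read from this count. The gap between the centres of a pair had a median of 24 bp and a maximum of 163 bp, and the pairs had from 71 bp to 211 bp in common.

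The heptamer was counted in the member peaks of each list, and its share is given beside that of the whole list. In replicate 1, 6 of 23 peaks held TGTTTAC on either strand at most 100 bp from the centre (26.1%, Wilson 95% interval 12.5% to 46.5%), beside 30.5% of all peaks. In replicate 2, 14 of 39 did (35.9%, 22.7% to 51.6%), beside 28.2% of all peaks. In equally long windows placed 2000 bp away on either side of each member peak, it was found in 1 of 46 (2.17%) and 1 of 78 (1.28%). Such windows beside all peaks held it in 2.88% and 2.89%. Both intervals include the share of the whole list. Under other settings the member shares were 21.7% and 25.6% with windows of 50 bp to each side, and 20.0% and 29.0% without EGFR. The whole-list shares hold for windows of 100 bp to each side only. No order relative to the whole lists was read from the heptamer shares.

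AP-1 sites were found in 6 of 23 replicate 1 peaks (26.1%, 12.5% to 46.5%), beside 16.4% of all peaks, and in 5 of 39 replicate 2 peaks (12.8%, 5.60% to 26.7%), beside 16.6% of all peaks. Under other settings these shares were 13.0% and 10.3% with windows of 50 bp to each side, 26.1% and 20.5% over whole peaks, and 20.0% and 6.45% without EGFR. Whole-list shares were not tabulated for the narrow windows or the whole peaks, and no order relative to the whole lists was read from the AP-1 shares. No member peak held both the heptamer and an AP-1 site in this window, and over all peaks 4.55% and 3.65% held both. Of the EGFR peaks, 3 held the heptamer and 3 an AP-1 site in replicate 1, and 5 and 3 in replicate 2. Neither site was in 2 of the 8 EGFR peaks in replicate 1, while each of the 8 in replicate 2 held one or the other. Over all peaks, 57.6% and 58.9% held neither. The degenerate forkhead core, which reads A or G, C or T, AAA, C or T, and A, and of which the heptamer is one form, was in 60.9% and 61.5% of member peaks, beside 57.9% and 56.9% of all peaks. A match of letters is a description and does not show which protein was bound.

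Member peaks of the 2 lists held 15 different heptamers in 8 genes, and 6 of these lay inside shared peaks in both lists. These 6 are shown with the bases around them, read along the strand of the heptamer, because they are the forkhead sites that both replicates cover. Capitals mark the heptamer.
EGFR -22.8 kb, chr7:54996165-54996195, plus strand: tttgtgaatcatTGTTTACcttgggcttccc
EGFR -31.1 kb, chr7:54987958-54987988, minus strand: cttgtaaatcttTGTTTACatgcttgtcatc
EGFR 29.3 kb, chr7:55048367-55048397, minus strand: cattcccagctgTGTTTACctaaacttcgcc
AREG 60.7 kb, chr4:74505775-74505805, minus strand: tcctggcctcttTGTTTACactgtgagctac
MET 18.5 kb, chr7:116690666-116690696, plus strand: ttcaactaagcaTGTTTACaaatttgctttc
ERRFI1 -35.2 kb, chr1:8061447-8061477, plus strand: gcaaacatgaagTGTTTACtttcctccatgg
EGFR thus contributed 3 of the 6, AREG, MET and ERRFI1 1 each, and ERBB2, ERBB3, ERBB4 and TGFA none.

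**Figure D5:**
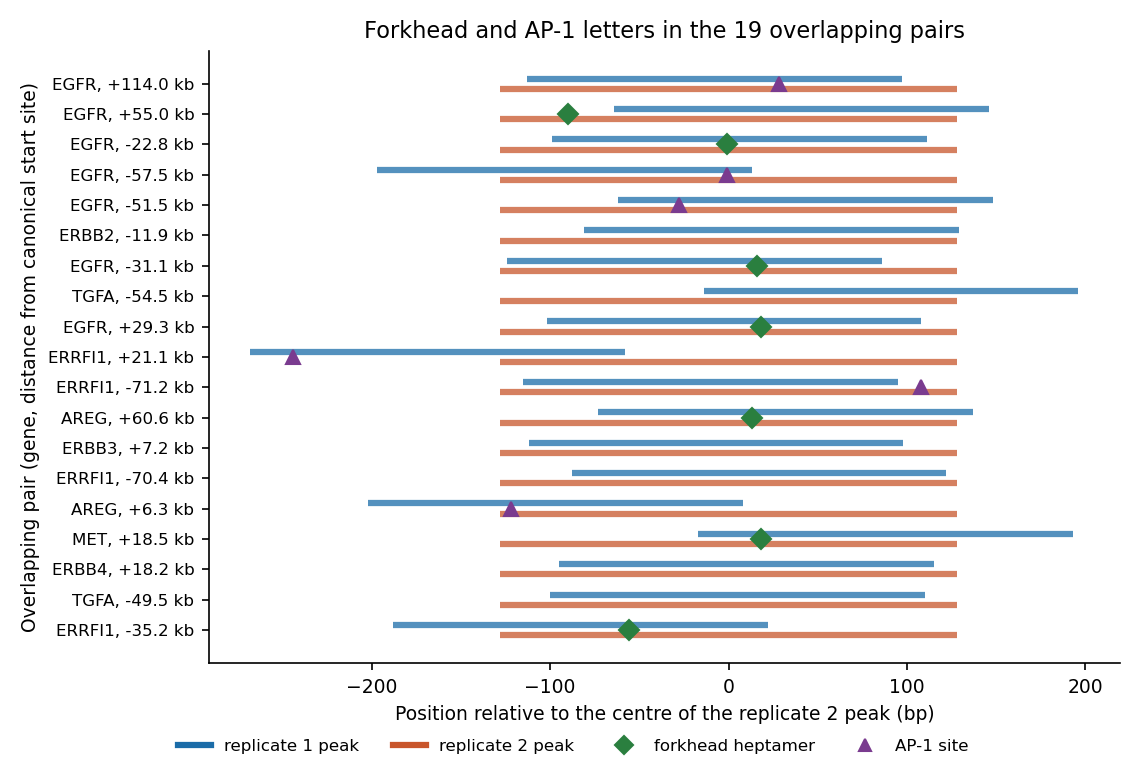
The 19 shared pairs are drawn by position in bp from the centre of the replicate 2 peak, with the extent of the replicate 1 peak in blue and of the replicate 2 peak in orange, in order of mean score percentile; green diamonds mark heptamers and purple triangles AP-1 sites. Heptamers lay inside both peaks of 6 pairs, AP-1 sites inside both of 4, and 6 pairs held neither.

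Promoter windows were searched for the heptamer as well. In RefSeq windows of GRCh38.p14, from 250 bases before to 50 bases after a gene's start, 11 windows were found for 9 members, and ERBB3 had none. TGTTTAC was in 0 of these 9 genes' windows on either strand, and in 3.42% of all 35116 promoter windows. Only the ERBB2 window was overlapped by FOXK2 peaks, 1 in each replicate. That window, chr17:39687844-39688143, lay at the alternative start beside PGAP3. The canonical ERBB2 start, at 39700064, had no window, so its promoter was not searched.

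The other genes of the pathway, a list of 38, had overlapping peaks in 13 cases (34.2%), a promoter peak in both replicates in 5 (13.2%) and no peak in either list in 12. By role, overlapping peaks were found for 7 of the 10 genes listed under inhibitors and degradation (CBLB, LRIG1, LRIG3, SOCS5, PTPN1, GRB7 and ERBIN), 3 of 8 other ligands (EGF, BTC and NRG4) and MST1R, the relative of MET. GRB7 was counted in that list although it is itself an adaptor. No overlapping pair was assigned to the 4 genes of ligand shedding or to the 6 genes listed as adaptors and exchange factors. The body of GAB1, a docking adaptor in that list named after its values were seen, held 4 peaks in each list, which were assigned to the microRNA gene MIR3139. The background for overlapping peaks is the 25.5% of all protein-coding genes given above. The matching background for the 5 genes with promoter peaks is 9.31%. For the 12 genes without any peak, no such share was tabulated. It follows from the shares of all protein-coding genes with a peak, 31.3% in replicate 1, 51.7% in replicate 2 and 28.6% in both. The role counts are too small to be read against these backgrounds.

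GRB7, an adaptor that binds ERBB2, had a promoter peak with a score of 42.6 (percentile 99.8) in replicate 1 and 87.9 (99.9) in replicate 2. It lay 39.6 kb from the canonical ERBB2 start, held a heptamer, and was assigned to GRB7 at deposited distances of -313 bp and -293 bp. PTPN1, a phosphatase that acts on receptor kinases, had a peak in intergenic DNA, at deposited distances of -87003 bp and -87024 bp, with scores of 16.6 and 32.4 (96.3 and 98.3). BTC had a promoter peak with a heptamer at 10.8 and 28.1 (87.5 and 97.6), in contrast to AREG and EREG, which had no promoter peak. CBLB, a ubiquitin ligase for receptor kinases, had its best pair in an intron, at 9.62 and 18.0 (83.4 and 92.2). It had more peaks than EGFR, with 11 in replicate 1 and 17 in replicate 2, of which 11 were shared in each. As many or more peaks were assigned to 3 protein-coding genes in replicate 1 (0.0150%) and 2 in replicate 2 (0.00998%). The CBLB body held only 2 peaks in replicate 1 and 4 in replicate 2, while the EGFR body held 4 in each. The farthest CBLB peaks lay at deposited distances of -649278 bp in replicate 1 and -649306 bp in replicate 2. The part of the CBLB count due to the distance to other start sites was not tested.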

How the data were processed

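FOXK2 ChIP-seq libraries of 2 biological replicates were analysed from the peak lists. Per the study's methods, the authors mapped single-end reads to hg38 with Bowtie2 2.2.6 and called peaks with HOMER 4.10 with settings not given in the sources used here. The authors also computed enrichment statistics per peak with DESeq2 and used a false discovery rate for the peaks whose genes they compared with the RNA-seq; the lists analysed here carry no such values. Each deposited list was annotated separately and holds a peak score, a normalized tag count, and a focus ratio, which is a fraction. Within the rounding of the printed digits, scores were whole multiples of a step worth 1 tag (0.189 and 0.149). The weakest peaks held 16 and 21 tags. The strongest member peaks held 77 tags (95% Poisson interval 60.8 to 96.2) and 239 tags (210 to 271), intervals that cover counting error only.

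All 10 members could be named, and from the 38 pathway genes the counts by role and the 5 genes with the best overlapping pair, of which 1 item and the counts of its role are not reported here. Members and lists were chosen with earlier results of these data known, so no test was made. Windows reached 100 bp to each side of the centre. GENCODE 44 gave gene positions, and RefSeq (GRCh38.p14) the 20033 coding genes and promoters. Alternatives were peaks above the list median, equal list lengths, stricter overlap, limits on distance, gene bodies, other motif windows, the forkhead core, each replicate alone and, chosen after seeing the data, EGFR left out. Overlap counting and motif search were both tested on simulated data. The simulated bases were only C and G around planted heptamers, and the simulated peaks were widely spaced. Matches or overlaps other than the planted ones could therefore not arise, unlike in real sequence. Python 3.11.15, pandas 2.3.3, numpy 2.4.6, pysam 0.24.0, scipy 1.17.1, samtools 1.23.1 and matplotlib 3.10.9 were used. Input libraries, reads and RNA-seq were not analysed here.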

Additional observations from a re-analysis of the deposited data

How the results depend on the processing

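A share was taken to have moved when it left the wide 95% Wilson interval of its main value, a count when it changed by more than 1.5 times, and a median percentile when it changed by more than 1 SD between replicates. By these limits 72 of 88 alternative values stayed and 16 moved. That 0 reversed was fixed in advance, since counts, shares and percentiles have no sign to reverse. AP-1 shares that changed by more than 1.5 times are among the 72. With only peaks above each list's median score, member peaks numbered 15 and 25, members with overlapping peaks 5 and pathway genes with overlapping peaks 8. With lists of equal length, replicate 2 kept 21 member peaks, 5 members had overlapping peaks, the overlapped shares were 60.9% and 66.7%, and the replicate 2 median percentile was 80.2, still on the scale of the full list, a rise that dropping its weaker part fixes. Gene bodies with 10 kb upstream held 13 replicate 1 peaks. The forkhead core in place of the heptamer was in 60.9% and 61.5% of member peaks. With EGFR left out, the median percentiles were 49.1 and 52.9. With each replicate alone, members with a peak numbered 8 to 9, members with a promoter peak 1 to 2, and pathway genes with a peak 14 to 26. Where no construction is named, the cause was not tested.

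No paired analysis was possible because the replicate numbers pair a FOXK2 library only with its input, and no list of an input was among the files analysed here. With 2 replicates of 1 condition, differences between the lists have no error of their own, and a peak missing from one list is not shown to be absent in that replicate; why it was missing was not tested.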

Other observations

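Peaks that were missed by overlap but had a near neighbour in the other list were found at 2 members. At TGFA the intron 1 peaks of the lists had centres 747 bp apart, and at ERRFI1 the centres at -57.9 kb and -57.7 kb were 258 bp apart. A further ERRFI1 peak of replicate 1, at -35.7 kb, had a replicate 2 centre 447 bp away, which belonged to the shared pair beside it.

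GRB7 lies close to ERBB2 on chromosome 17, with MIEN1 nearer to ERBB2, and the GRB7 promoter peak ranked 23.5 of 12471 in replicate 1 and 19 of 27281 in replicate 2, with 226 and 591 tags. The ERBB2 and PGAP3 peak held 51 and 114 tags.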
